A study of Mus musculus with 12 samples.

Results

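Cytosolic ribosomal protein genes encode the proteins of the large and small subunits of the ribosome, the machine that translates mRNA into protein. They were taken as every gene whose symbol in the array's probe annotation is Rpl or Rps, with or without a further p, followed by a number and at most an a, x or l, which leaves out pseudogenes and the Rps6k kinases. This gave 72 genes with 120 probes, of 19526 named genes and 41174 probes on the array, 46 of the large subunit and 26 of the small one. All 72 were well above background in all 12 samples and entered the fit, which tested 27173 features (genes, or probes without a gene name).

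RNA came from femoral growth plate cartilage of Swiss White mice at 14 days of age, from which the proliferative, prehypertrophic and hypertrophic zones had been microdissected in cryosections, with 4 samples per zone. The labels name no treatment or mutation, and they do not tie samples to animals, so p-values measure only the spread between these samples, which may be technical. Amplified RNA was labelled with Cy3 or Cy5 and hybridised to 6 two-colour arrays. An array compared one zone with another, and every such comparison was made on 2 arrays with the dyes exchanged.

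The growth plate lengthens bones. In its proliferative zone chondrocytes divide in columns, in the prehypertrophic zone they leave the cell cycle, and in the hypertrophic zone they enlarge within a matrix of type X collagen before blood vessels and marrow cells invade. Ribosomal proteins are made in near equal amounts and assemble with ribosomal RNA in the nucleolus, and their mRNAs begin with a stretch of pyrimidines, the 5′ terminal oligopyrimidine tract or TOP, through which mTOR signalling controls their translation. Skeletal or growth defects follow the loss of single ribosomal proteins in mice and humans.

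The zones carried their markers. Of 7 measured genes of prehypertrophic and hypertrophic chondrocytes, 7 rose in the hypertrophic and 6 in the prehypertrophic zone relative to the proliferative zone, led by Mmp13, a collagenase of terminal chondrocytes, with a log2 change of 5.71 in the hypertrophic zone. Saturated spots were present in 4 of these 7. The log2 summed level of 15 leukocyte and marrow genes lay between 7.22 and 7.74 in the hypertrophic samples, against 2.93 to 4.07 in the prehypertrophic and 2.82 to 3.86 in the proliferative samples. Likewise 8 endothelial genes summed to between 2.72 and 3.12 in the hypertrophic samples, against 0.90 to 1.17 in the prehypertrophic and 0.39 to 0.90 in the proliferative samples. Of these 2 lists, 0 genes were below background throughout a zone. The hypertrophic samples therefore held RNA of marrow and vessel markers, and its part in the values below was not tested. Samples of the same zone correlated at 0.967 to 0.982 over all features and those of different zones at 0.897 to 0.962.

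The tract would lie at the annotated start. The windows below are those of 8 of the 10 genes with the largest falls in the prehypertrophic zone. They are printed to show how the pyrimidine runs around the annotated start differ among them. Of the other 2, Rpl19 has 2 annotated starts and Rpl36 no entry in the table used. Of the 72 genes, 57 matched an entry in the RefSeq promoter table (build GRCm38.p6). Each window runs from 10 bases before the annotated start to 20 bases from it on, 5′ to 3′ on the gene's strand, and the capitals mark its longest run of pyrimidines (C or T), the earliest of equal ones.
Rpl27a, chr7:109519185-109519214, plus strand: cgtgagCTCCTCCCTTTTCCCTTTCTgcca
Rps9, chr7:3704031-3704060, plus strand: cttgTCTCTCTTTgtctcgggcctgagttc
Rps10, chr17:27635225-27635254, minus strand: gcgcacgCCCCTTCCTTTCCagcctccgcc
Rps6, chr4:86857348-86857377, minus strand: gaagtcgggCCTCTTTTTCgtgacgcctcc
Rpl7a, chr2:26910797-26910826, plus strand: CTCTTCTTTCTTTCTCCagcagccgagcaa
Rpl28, chr7:4792955-4792984, plus strand: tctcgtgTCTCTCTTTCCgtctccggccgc
Rpl9, chr5:65391412-65391441, minus strand: gggCCCTgacggattacaagaacgtgatga
Rps2, chr17:24720053-24720082, plus strand: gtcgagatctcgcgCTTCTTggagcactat
The run was 20 bases long in Rpl27a and 17 in Rpl7a, but 4 in Rpl9 and 6 in Rps2. That of Rpl9 lay wholly before the annotated start and that of Rps2 wholly after it, so neither shows a tract at the start. A run of at least 8 pyrimidines was found in 22 of the 57 genes (38.6%), against 13.0% of 27025 genes in the table. The letters CTTTC on the gene's strand were in the windows of 14 of the 57 (24.6%), against 4.43% of all genes. CCGGAAG, a core of ETS factor motifs searched on both strands of the 300 bases around the start, was found in 24 of the 57 (42.1%), against 9.93%. Genes that fell in the prehypertrophic zone held a run of at least 8 in 11 of 29 (37.9%), and the other members in 11 of 28 (39.3%). The same genes held CTTTC in 6 of 29 (20.7%), against 8 of 28 (28.6%) of the other members, and CCGGAAG in 9 of 29 (31.0%), against 15 of 28 (53.6%). Over the 72 genes, 32 of the 37 without a fall had saturated spots, against 11 of the 35 that fell. The other members are thus mostly genes whose brightness limited the measurement, as described below. The 29 genes here are not the 29 unsaturated genes described later. These shares were not tested. A match describes the letters and does not show a working site.

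Brightness limited the measurement. Many of these mRNAs are so abundant that their spots reached the scanner's ceiling, mostly in the Cy5 channel, where 205 member spots were saturated, against 12 in Cy3. Of the 72 genes, 43 had a saturated spot in at least 1 sample, 31 of them in at least 5 samples, and 29 had none. In the 43, the median log2 ratio changed sign with the dye. For the hypertrophic over the proliferative zone it was 0.29 on the array with Cy3 on the hypertrophic sample and -0.39 on the array with Cy5 on it. For the prehypertrophic over the proliferative zone the 2 medians were 0.15 and -0.59, and for the hypertrophic over the prehypertrophic zone 0.15 and -0.21. In the 29 genes without saturation the 2 arrays of each pair of zones gave nearly the same median: -0.25 and -0.25, -0.45 and -0.43, and 0.12 and 0.11. The 29 are therefore described in detail, and the 43 by their counts and, where one exists, by a dimmer probe.

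**Figure D1:**
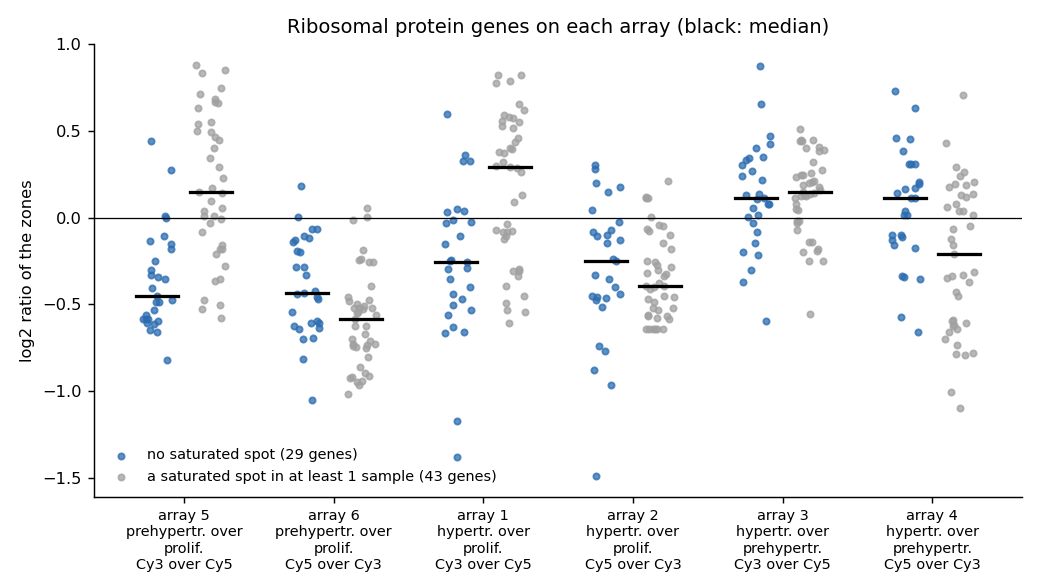
Log2 ratio of the 2 zones on each of the 6 arrays (y axis) for the ribosomal protein genes, in blue the 29 with no saturated spot and in grey those with one in at least 1 sample, with black bars at the medians. The blue medians are alike on the 2 arrays of each pair of zones (-0.45 and -0.43, -0.25 and -0.25, 0.12 and 0.11), whereas the grey medians change sign with the dye.

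In the prehypertrophic zone ribosomal protein mRNAs were lower than in the proliferative zone. Of the 29 unsaturated genes 24 fell and 0 rose (limma, Benjamini-Hochberg adjusted p under 0.05), with a median log2 change of -0.50. Among all features without saturation 22.6% fell and 23.4% rose, with a median of 0.02. An unadjusted p under 0.05 gave the same counts, 24 and 0. The direct ratios were below 0 for 26 of the 29 on one array and 27 of the 29 on the other, against 48.9% and 47.7% of all features. Over all 72 genes 35 fell and 0 rose, against a background of 22.5% and 23.4%, with 37 and 0 at an unadjusted p under 0.05. Blocking on replicate number in a separate-channel fit gave calls that the main fit did not. Rpl38, Rplp1, Rplp2 and Rps27, which have saturated spots, were lower, at -0.11, -0.14, -0.16 and -0.17 (limma adjusted p = 0.043, 0.023, 0.012 and 0.039). Rpl3l was higher, at 0.20 (limma adjusted p = 0.017). Except for Rps27, their direct ratios were above 0 on array 5 and below 0 on array 6, where the dyes were exchanged. The block cannot be told apart from the layout of arrays and dyes, so these calls are not read as falls or rises. Of the 43 genes with saturated spots 11 fell and 0 rose, against 17.3% and 27.3% of all features with such spots. Quantile normalization gave 33 and 4 over the 72, against 21.7% and 23.8% of all features. The fit gave 5 risers without array 6 and 1 without array 4. In bulk tissue, fewer cells that express a gene and less of its RNA per cell cannot be told apart.

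Both subunits took part. Of the unsaturated genes 14 of 18 of the large subunit and 10 of 11 of the small subunit fell, with median log2 changes of -0.46 and -0.50. The 5 without a call were Rpl3l, Rpl21, Rps14, Rpl39l and Rpl31. Another unsaturated probe passed the test in 3 of them, with -0.35 for Rpl31, -0.83 for Rpl21 and -0.41 for Rpl39l (limma adjusted p = 0.0011, 0.0014 and 0.021), those of Rpl21 and Rpl39l being far dimmer than the brightest probe. Of the 5, Rpl3l is known as a striated muscle form of Rpl3, and Rpl39l as a testis form of Rpl39. Proliferation genes moved with this comparison: 10 of 11 fell in the prehypertrophic zone, with a median log2 change of -2.87, and their log2 summed level was 2.96 to 3.28 in the prehypertrophic samples, against 5.78 to 6.16 in the proliferative samples. Their part in the result was not tested.

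The hypertrophic zone was lower than the proliferative zone as well, by less at the median and with more spread between genes. Of the 29, 20 fell and 5 rose, with a median log2 change of -0.26. Among all features without saturation 30.8% fell and 28.2% rose, with a median of -0.03. Over all 72 genes 29 fell and 5 rose, against 30.7% and 28.2% of all features, so that the share of falls among the 72 (40.3%) lies nearer the background than that among the 29 (69%), while the share of rises (6.94%) lies farther from it than that among the 29 (17.2%). Of the 43 with saturated spots 9 fell and 0 rose, against 25.6% and 24.5% of such features. Quantile normalization gave 31 and 15 over the 72, against 37.8% and 24.4% of all features. The median of the 72 was -0.07 in that setting and that of all features -0.11. Relative to all features, the 72 were thus not lower at the median there. The count of risers depended on single arrays: it was 2 without array 1 or array 5, 3 without array 2, 4 or 6, and 7 without array 3. Of 11 proliferation genes 5 fell and 4 rose in this comparison, with a median of 0.03.

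**Figure D2:**
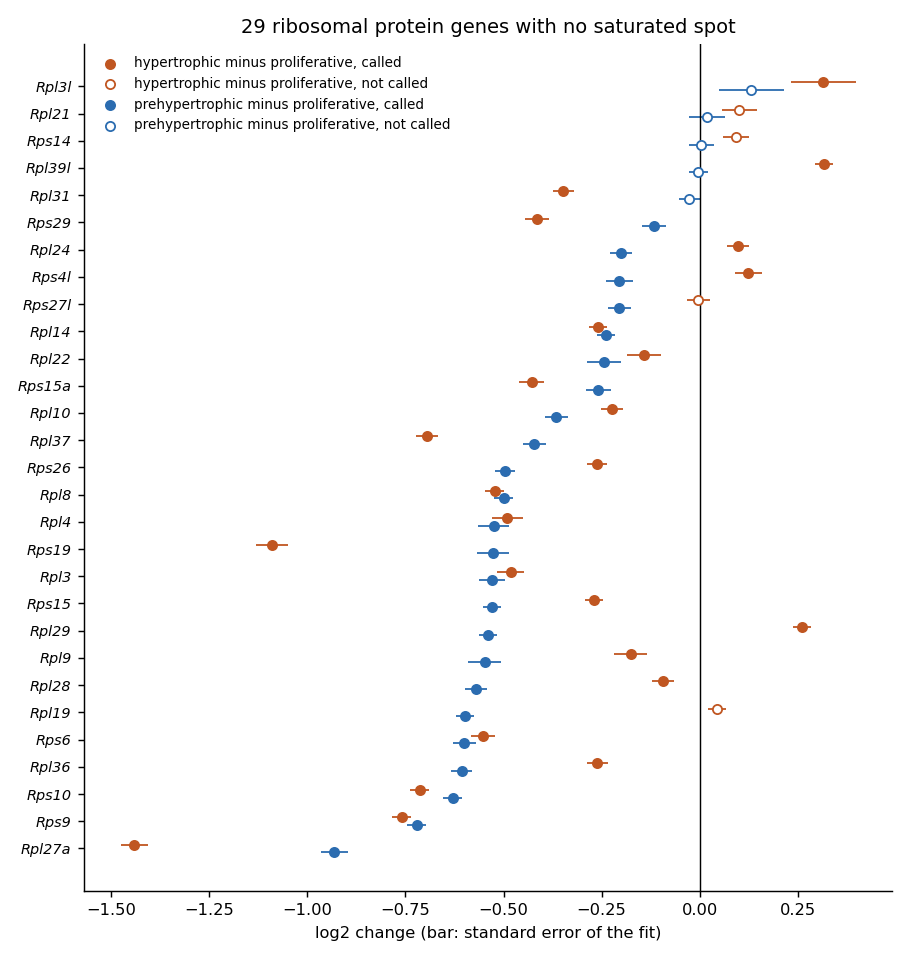
Log2 change (x axis, with the standard error of the fit) of each of the 29 ribosomal protein genes without a saturated spot, in the hypertrophic (orange) and the prehypertrophic (blue) zone relative to the proliferative zone. Filled points passed the test. The blue points lie at or below 0 except those of Rpl3l, Rpl21 and Rps14, and the orange points reach from -1.44 for Rpl27a to 0.32 for Rpl39l and Rpl3l.

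Between the later zones the genes moved both ways, as all features did. In the hypertrophic zone 12 of the 29 were higher and 7 lower than in the prehypertrophic zone, against 28.1% and 29.9% of all features without saturation, with a median of 0.09. Over all 72 genes 17 were higher and 8 lower, against 28% and 29.9%, and of the 43 with saturated spots 5 were higher and 1 lower, against 19.5% and 29.5%. The count of lower genes was 15 without array 6 and 5 without array 4. Proliferation genes were higher in the hypertrophic zone in 11 of 11 cases, with a median of 2.24, and so were 13 of 15 leukocyte and marrow genes, with a median of 3.36. Their part in the rises was not tested.

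Across the zones 3 courses were set apart, each given with its count over the 29. Lower at both steps were 6 genes, Rpl27a, Rps19, Rpl37, Rps29, Rps15a and Rps10, against 6.81% of all features without saturation. Lower in both later zones with no call between them were 7, Rps9, Rps6, Rpl8, Rpl4, Rpl3, Rpl14 and Rpl22, against 4.4%. Lowest in the prehypertrophic zone, that is lower there than in the proliferative zone and higher again in the hypertrophic zone, were 11, against 10.8%: Rpl29, Rpl19, Rpl28, Rpl9, Rpl36, Rps15, Rps26, Rpl10, Rps4l, Rpl24 and Rps27l. In all, 19 of the 29 were lower in both later zones, against 14.9%, and 2, Rpl21 and Rps14, had no call in any comparison by their brightest probe, against 28.8%. Over the 72 genes 7 were lower at both steps (6.79% of all features), 13 lower in both later zones with no call between them (4.41%) and 14 lowest in the prehypertrophic zone (10.7%). Of the 72, 27 were lower in both later zones (14.9%), and 31 had no call in any comparison (28.9%), 29 of them with saturated spots. Levels below are loess-normalized log2 signals from which each sample's own 75th percentile was subtracted. Unlike the fitted changes, they keep dye and array differences, so whether zones overlap is a rougher comparison between samples. They cannot be compared between genes.

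Rpl27a, a large subunit protein whose mutation in mice gives the sooty foot ataxia phenotype, had the lowest log2 changes of the 72 genes in both later zones relative to the proliferative zone, each gene read by its brightest probe. Its level was 1.52, 1.34, 1.34 and 1.33 in the proliferative samples, 0.49, 0.60, 0.57 and 0.32 in the prehypertrophic samples and 0.08, -0.20, 0.03 and -0.15 in the hypertrophic samples. The 3 zones did not overlap. The log2 change was -1.44 in the hypertrophic zone (SE 0.034, limma adjusted p = 2.6e-05), which is 0.368 times the proliferative signal. In the prehypertrophic zone it was -0.93 (adjusted p = 0.00012), or 0.524 times.

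Rps19, the small subunit protein most often mutated in human Diamond-Blackfan anaemia, came next in the hypertrophic zone. It read 4.87, 4.67, 4.59 and 4.57 in the proliferative samples, 4.29, 4.24, 3.99 and 4.17 in the prehypertrophic samples and 3.63, 3.65, 3.60 and 3.58 in the hypertrophic samples, again without overlap between zones. Its log2 change was -1.09 in the hypertrophic zone (SE 0.041, adjusted p = 6.8e-05) and -0.53 in the prehypertrophic zone (adjusted p = 0.00091). A further probe of the gene, nearly as bright, gave -1.22 and -0.70.

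Rpl37 of the large subunit had 4.70, 4.55, 4.45 and 4.46 in the proliferative samples, 4.18, 4.26, 4.09 and 4.07 in the prehypertrophic and 3.98, 3.76, 3.89 and 3.84 in the hypertrophic samples. The zones did not overlap, and the log2 changes were -0.42 in the prehypertrophic and -0.70 in the hypertrophic zone relative to the proliferative zone (adjusted p = 0.00062 and 9.0e-05). A far dimmer probe gave -0.31 and -0.28 with no call. Rps10, like Rps19 a Diamond-Blackfan gene in humans, had 4.06, 3.93, 4.01 and 3.90 in the proliferative samples, 3.27, 3.45, 3.48 and 3.23 in the prehypertrophic and 3.37, 3.11, 3.15 and 3.20 in the hypertrophic samples. All its later samples lay below all proliferative ones. The changes were -0.63 and -0.71, and the further change of -0.08 between the later zones (adjusted p = 0.043) did not pass the test without any 1 of the 6 arrays, where its adjusted p was 0.078 to 0.19. The step of Rps15a between the later zones, -0.17, did not pass without array 4 (adjusted p = 0.072). That of Rpl10a, saturated in 1 sample, was -0.12 and passed only without array 3 when arrays were left out (adjusted p up to 0.16).

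Rps29 and, by its brightest probe, Rpl31 had their larger change in the hypertrophic zone. The log2 change of Rps29 was -0.12 in the prehypertrophic (adjusted p = 0.039) and -0.41 in the hypertrophic zone relative to the proliferative zone (adjusted p = 0.00052). Rpl31 was -0.35 in the hypertrophic zone (adjusted p = 0.00061) but -0.03 in the prehypertrophic zone (adjusted p = 0.49). A further probe of Rpl31, nearly as bright, was lower in both, at -0.76 in the hypertrophic and at -0.35 in the prehypertrophic zone (adjusted p = 7.8e-05 and 0.0011). Rpl31 is the gene of the 29 with most pseudogene symbols in RefSeq, 24.

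Rps9 stood for the genes that were low in both later zones alike. Its level was 2.32, 2.17, 2.11 and 2.10 in the proliferative samples, 1.52, 1.52, 1.56 and 1.32 in the prehypertrophic and 1.60, 1.24, 1.49 and 1.31 in the hypertrophic samples. The later zones overlapped each other and lay wholly below the proliferative zone. The changes were -0.72 and -0.76 (adjusted p = 9.9e-05 and 4.6e-05).

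Rps6, the small subunit protein phosphorylated by S6 kinase downstream of mTOR, read 4.00, 3.69, 3.83 and 3.60 in the proliferative samples, 3.31, 3.31, 3.24 and 3.03 in the prehypertrophic and 3.40, 3.12, 3.23 and 3.26 in the hypertrophic samples. All later samples were below all proliferative ones, with changes of -0.60 and -0.55 (adjusted p = 0.00024 and 0.00019). A further, far dimmer probe of Rps6 gave another course, with 0.88 in the prehypertrophic and -0.11 in the hypertrophic zone, so that the mean of both probes gave a change of 0.14 in the prehypertrophic zone.

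Rpl3, which lies near the peptidyl transferase centre, had 4.87, 4.62, 4.77 and 4.54 in the proliferative samples, 4.19, 4.27, 4.24 and 4.10 in the prehypertrophic and 4.31, 4.11, 4.18 and 4.20 in the hypertrophic samples. Rpl8, also of the large subunit, had 4.09, 3.87, 4.03 and 3.83 in the proliferative samples, 3.51, 3.48, 3.52 and 3.41 in the prehypertrophic and 3.47, 3.36, 3.33 and 3.40 in the hypertrophic samples. Rpl4, whose long loop lines the exit tunnel, had -0.76, -0.84, -0.92 and -1.02 in the proliferative samples, -1.22, -1.27, -1.36 and -1.61 in the prehypertrophic and -1.25, -1.38, -1.20 and -1.46 in the hypertrophic samples. In each of the 3 the proliferative samples lay above all others and the later zones overlapped. Their changes were -0.53, -0.50 and -0.53 in the prehypertrophic zone and -0.48, -0.52 and -0.49 in the hypertrophic zone.

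Rpl29 had the largest rise between the later zones among the brightest probes of the 72 genes. The protein also binds heparin, and mice without it are small. Its level was 1.85, 1.70, 1.54 and 1.49 in the proliferative samples, 1.28, 1.27, 1.11 and 0.93 in the prehypertrophic and 2.12, 1.85, 2.06 and 1.91 in the hypertrophic samples. The prehypertrophic samples lay below all others. The change was -0.54 in the prehypertrophic zone relative to the proliferative zone and 0.80 in the hypertrophic relative to the prehypertrophic zone (adjusted p = 0.00017 and 6.2e-05), and the hypertrophic zone exceeded the proliferative zone by 0.26 (adjusted p = 0.00094), although the levels of the 2 zones overlapped by 1 sample. Its 3 other probes gave 0.05 to 0.20 for that difference, of which 2 passed, and 0.17 to 0.74 between the later zones. Dimmer probes of Rpl39l and Rps13 rose more there, by 0.95 and 0.85.

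Rpl19, a protein of the large subunit near the exit tunnel and a common reference gene in qPCR, took the same course without the excess. It had 4.63, 4.33, 4.53 and 4.33 in the proliferative samples, 3.87, 3.94, 4.00 and 3.76 in the prehypertrophic and 4.62, 4.32, 4.44 and 4.48 in the hypertrophic samples. The prehypertrophic zone stood apart and the others overlapped. The changes were -0.60 in the prehypertrophic zone and 0.04 in the hypertrophic zone relative to the proliferative zone (adjusted p = 0.00013 and 0.17). A dimmer probe of Rpl19 gave -0.68 and -0.27, and there the hypertrophic zone was lower as well (adjusted p = 0.0017).

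**Figure D3:**
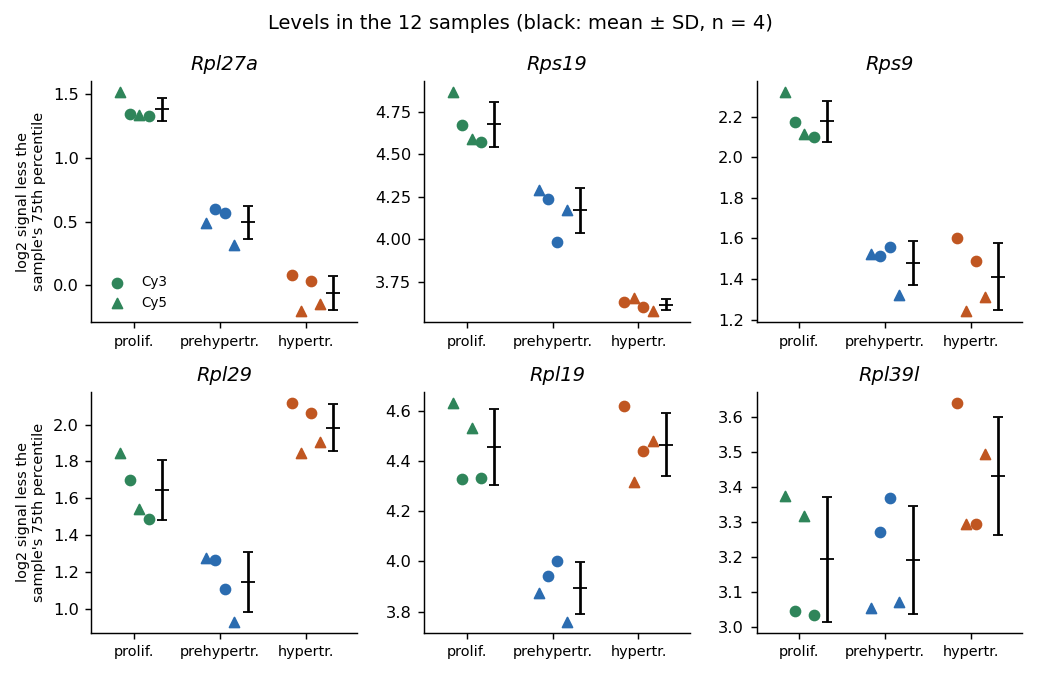
Level (log2 signal less the sample's 75th percentile, y axis, a scale of its own for each gene) of 6 ribosomal protein genes in the 4 samples of each zone, circles for Cy3 and triangles for Cy5, with the mean and SD in black. Rpl27a and Rps19 step down across the zones, Rps9 is low in both later zones, Rpl29 and Rpl19 are lowest in the prehypertrophic zone, and the zones of Rpl39l overlap.

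Rpl28, Rpl36 and Rpl9 of the large subunit were likewise lowest in the prehypertrophic zone. Rpl28 had 2.15, 1.95, 1.89 and 1.88 in the proliferative samples, 1.54, 1.49, 1.41 and 1.28 in the prehypertrophic and 2.06, 1.77, 1.92 and 1.86 in the hypertrophic samples. Rpl36 had 3.11, 2.87, 2.95 and 2.84 in the proliferative samples, 2.50, 2.53, 2.41 and 2.23 in the prehypertrophic and 2.80, 2.57, 2.76 and 2.75 in the hypertrophic samples. Rpl9 had 5.35, 5.11, 4.93 and 5.01 in the proliferative samples, 4.76, 4.68, 4.37 and 4.61 in the prehypertrophic and 5.00, 4.96, 5.07 and 4.97 in the hypertrophic samples. Every prehypertrophic sample of the 3 genes was below every sample of the other zones. The changes were -0.57, -0.61 and -0.55 in the prehypertrophic zone relative to the proliferative zone, and 0.48, 0.35 and 0.37 in the hypertrophic relative to the prehypertrophic zone. The small subunit genes Rps15 and Rps26 did the same by -0.53 and -0.50, then 0.26 and 0.24. Rpl10, on the X chromosome, had changes of -0.36 and then 0.14, the rise without a call when array 3 or array 5 was left out (adjusted p up to 0.072).

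Of the paralogs with the suffix l, those within the symbol rule were not called lower in the hypertrophic than in the proliferative zone. Rpl36al, which the rule leaves out, was lower there (given below). Rpl39l read 3.37, 3.04, 3.32 and 3.03 in the proliferative samples, 3.05, 3.27, 3.37 and 3.07 in the prehypertrophic and 3.64, 3.29, 3.29 and 3.49 in the hypertrophic samples. These levels overlap, but on each of the 4 arrays that held a hypertrophic sample the direct ratio was 0.30 to 0.33, and the change was 0.32 relative to the proliferative zone (adjusted p = 0.0005) and 0.00 in the prehypertrophic zone. Its parent Rpl39 was saturated in 6 samples and had no call in any comparison.

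Rps4l had -0.17, -0.52, -0.34 and -0.66 in the proliferative samples, -0.41, -0.59, -0.63 and -0.75 in the prehypertrophic and -0.19, -0.29, -0.36 and -0.22 in the hypertrophic samples. Its rise of 0.12 in the hypertrophic relative to the proliferative zone (adjusted p = 0.037) did not pass without array 1, 2, 4 or 5 (adjusted p up to 0.18), while 0.33 relative to the prehypertrophic zone held (adjusted p = 0.0019). Its fall of -0.20 in the prehypertrophic zone did not pass without array 5 (adjusted p = 0.076). Its parent Rps4x was saturated in all 4 proliferative samples and so has only a lower bound there. Rps27l, known as a p53 target, had a log2 change of -0.20 in the prehypertrophic zone (adjusted p = 0.0058), and its change of -0.0033 in the hypertrophic zone had no call (adjusted p = 0.93). Its parent Rps27 was saturated in 4 samples and had no call. Rpl10l and Rps27a were not analysed here.

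Rpl3l was dim, with -3.48, -2.79, -3.07 and -2.57 in the proliferative samples, -2.75, -3.11, -2.57 and -2.60 in the prehypertrophic and -2.94, -2.92, -2.50 and -3.06 in the hypertrophic samples. The zones overlapped. Its rise of 0.32 in the hypertrophic zone (SE 0.082, adjusted p = 0.031) did not pass without array 1, 3, 5 or 6 (adjusted p up to 0.14). Rpl24, mutated in the belly spot and tail mouse, had 4.49, 4.13, 4.40 and 4.07 in the proliferative samples, 4.11, 4.13, 4.20 and 3.97 in the prehypertrophic and 4.47, 4.22, 4.32 and 4.35 in the hypertrophic samples. Its rise of 0.10 over the proliferative zone (adjusted p = 0.042) was lost without any 1 of the 6 arrays (adjusted p 0.075 to 0.15). Thus of the 5 genes called higher in the hypertrophic than in the proliferative zone, Rpl29 and Rpl39l kept the call without any 1 array.

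Among the genes with saturated spots, Rplp0, the stalk base that carries Rplp1 and Rplp2 at the factor binding site, had 5.64, 5.34, 5.34 and 5.48 in the proliferative samples, 5.05, 4.84, 4.87 and 5.00 in the prehypertrophic and 5.47, 5.49, 5.47 and 5.46 in the hypertrophic samples, with saturated spots in 3 of the 12. The prehypertrophic samples lay below all others. The change was -0.54 in the prehypertrophic zone relative to the proliferative zone, and 0.60 in the hypertrophic relative to the prehypertrophic zone (adjusted p = 0.0016 and 0.00089). Its brighter unsaturated probe gave -0.67 and 0.59. Rplp1 was saturated in 8 samples and Rplp2 in 5, and neither had a call in any comparison.

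Rpl13, whose mutation in humans causes a spondyloepimetaphyseal dysplasia, had 5.65, 5.59, 5.34 and 5.63 in the proliferative samples, 5.18, 5.17, 5.03 and 5.14 in the prehypertrophic and 5.06, 5.05, 5.07 and 5.11 in the hypertrophic samples, with saturated spots in 2 of the 12. Rpl7a had 5.65, 5.38, 5.34 and 5.37 in the proliferative samples, 4.91, 4.93, 4.89 and 4.86 in the prehypertrophic and 4.98, 4.87, 4.98 and 5.02 in the hypertrophic samples, with saturated spots in 2 of the 12. Rps2 had 5.64, 5.63, 5.34 and 5.54 in the proliferative samples, 5.23, 5.07, 4.92 and 5.05 in the prehypertrophic and 5.28, 5.33, 5.40 and 5.41 in the hypertrophic samples, with saturated spots in 2 of the 12. In Rpl13 and Rpl7a all later samples were below the proliferative ones, and in Rps2 the prehypertrophic ones were below all others. The changes were -0.47, -0.58 and -0.54 in the prehypertrophic zone and -0.49, -0.48 and -0.24 in the hypertrophic zone relative to the proliferative zone. The saturated spots of these 3 genes were in the proliferative zone, and a saturated spot gives only a lower bound. Their brightest unsaturated probes gave -0.74, -0.69 and -0.75 in the prehypertrophic and -0.97, -0.90 and -0.52 in the hypertrophic zone relative to the proliferative zone. Those of Rpl13 and Rpl7a were far dimmer than the brightest probe. By these probes Rpl13 and Rpl7a were also lower in the hypertrophic than in the prehypertrophic zone, with -0.24 and -0.21 (adjusted p = 0.0043 and 0.012).

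Rpl5 and Rpl11, which bind MDM2 together with 5S RNA when ribosome assembly fails, each had a saturated and an unsaturated probe. The brightest probe of Rpl5, saturated in 3 samples, gave -0.20 in the prehypertrophic zone (adjusted p = 0.033, up to 0.11 when an array was left out) and -0.25 in the hypertrophic zone (adjusted p = 0.012, and 0.075 without array 1). Its unsaturated probe, far dimmer, gave -0.88 and -0.92. The brightest probe of Rpl11, saturated in 6 samples, had no call in any comparison. The unsaturated probe of Rpl11, far dimmer as well, gave -0.64 and -0.43. Rpl38, mutated in the tail-short mouse with its skeletal patterning defects, was saturated in 5 samples and had no call. Rpl26, Rpl27 and Rpl35, with the smallest changes in one comparison or another, were saturated in 5 or 6 samples. Rps14, the gene tied to the human deletion form of myelodysplasia, had no saturated spot and no call, with 0.00 in the prehypertrophic and 0.09 in the hypertrophic zone relative to the proliferative zone.

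With the brightest unsaturated probe of each gene, an alternative chosen after seeing the data, 50 of the 72 genes could be read. Of these 39 fell and 1 rose in the prehypertrophic zone relative to the proliferative zone, against 22.8% and 23.4% of all features, with a median of -0.51. In the hypertrophic zone 35 fell and 6 rose, against 30.9% and 28.3%, with a median of -0.31. Between the later zones 19 were higher and 15 lower in the hypertrophic zone, against 28.1% and 30%. The 21 genes added this way had 15 falls and 1 rise in either later zone, with medians of -0.59 in the prehypertrophic and -0.52 in the hypertrophic zone. Rps24 gave -1.56 and -1.31, and Rps12 -0.97 and -1.26, by probes far dimmer than the saturated ones. Their mean log2 signals were 11.2 and 10.6, against 17.3 and 17.4 for the brightest probes. The rises were Rps25, with 0.33 in the prehypertrophic zone, and Rps13, with 0.43 in the hypertrophic zone. They were named after their values were seen. Their probes were far dimmer too, with mean log2 signals of 12.2 and 10.8, against 17.0 and 17.0 for the brightest probes.

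**Figure D4:**
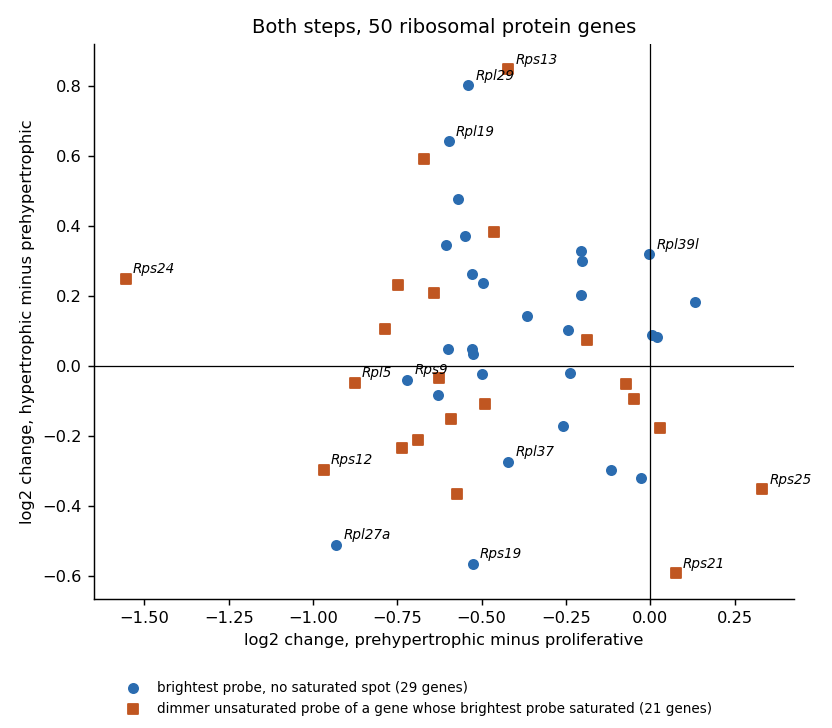
Log2 change from the brightest unsaturated probe of 50 ribosomal protein genes, prehypertrophic minus proliferative (x axis) and hypertrophic minus prehypertrophic (y axis), with orange squares for the 21 genes whose brightest probe saturated. Both axes use the prehypertrophic samples, so no relation between them is read. Most points lie left of 0, and they spread from 0.85 for Rps13 to -0.59 for Rps21 on the y axis.

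Where a gene had several probes, they mostly gave the same direction. Of 19 genes with several probes and a call in the prehypertrophic zone relative to the proliferative zone, every other probe gave the same sign in 17, Rps6 and Rps2 being the exceptions, and in the hypertrophic zone in 18 of 19. The calls differed more often than the signs. Of the 29 unsaturated genes 14 had several probes, and in a fit of single probes all probes of a gene had the same call in 8 of the 14 in the prehypertrophic zone and in 7 of the 14 in the hypertrophic zone, each relative to the proliferative zone, and in 10 of the 14 between the later zones. RefSeq lists pseudogene symbols for 56 of the 72 genes, 13 for Rps19, 12 for Rpl19 and 4 for Rpl27a, and 0 for Rps9, Rpl4 and Rpl8. A probe may also take up RNA of such copies, and the probe sequences were not used here to tell them apart.

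Ribosomal proteins that the symbol rule leaves out gave 4 falls and 0 rises among 6 measured genes in the prehypertrophic zone relative to the proliferative zone, with a median of -0.41, and 3 falls in the hypertrophic zone, with a median of -0.22. Saturated spots were present in 3 of the 6. Rpsa, a small subunit protein also known as a laminin receptor, was -0.59 in the prehypertrophic and -0.88 in the hypertrophic zone, and Rpl36al, a copy of Rpl36a, -0.62 and -1.03.

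Ribosome biogenesis genes, which make and process ribosomal RNA, fell in 51 of 70 cases and rose in 5 in the prehypertrophic relative to the proliferative zone, with a median of -0.45. The 3 largest changes were falls, -2.06 for Nop56, a core protein of box C/D particles, -2.04 for the assembly factor Rrs1 and -1.43 for the helicase Ddx21. In the hypertrophic relative to the proliferative zone 42 fell and 10 rose, with a median of -0.26, Rrs1 at -2.13 and the rRNA methyltransferase Fbl at -1.59. In the hypertrophic relative to the prehypertrophic zone 33 rose and 20 fell, with a median of 0.16. No test compared the list with the ribosomal protein genes. A saturated spot was present in 1 of the 70.

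Other mRNAs reported to carry a 5′ TOP fell in 15 of 23 cases and rose in 4 in the prehypertrophic zone relative to the proliferative zone, with a median of -0.30. They fell in 9 and rose in 8 in the hypertrophic zone, with a median of -0.09, and rose in 11 and fell in 5 between the later zones. The largest changes were those of the histone chaperone Nap1l1, -2.09 in the prehypertrophic and -1.32 in the hypertrophic zone. Saturated spots were present in 6 of the 23 genes.

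Elongation and termination factors fell in 6 of 13 cases in the prehypertrophic and 10 of 13 in the hypertrophic zone relative to the proliferative zone, with 1 rise each and medians of -0.11 and -0.40. Eef1b2, a nucleotide exchange factor of elongation, was lowest in both, with -0.71 and -0.96. Between the later zones 5 fell and 2 rose. A saturated spot was present in 2 of the 13. Initiation factors moved both ways: 14 of 31 fell and 10 rose in the prehypertrophic zone, and 9 fell and 14 rose in the hypertrophic zone. Between the later zones 20 rose and 7 fell, led by Eif4h with 1.01.

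Growth regulators of ribosome supply, a list around MYC, MTOR and LARP1, fell in 5 and rose in 9 of 26 cases in the prehypertrophic zone relative to the proliferative zone. They fell in 9 and rose in 14 in the hypertrophic zone, and rose in 15 and fell in 6 between the later zones. The MYC antagonists Mxd1 and Mxi1 were among the 3 largest in every comparison, with 0.93 and 1.00 in the prehypertrophic zone and 2.41 and 2.03 in the hypertrophic zone relative to the proliferative zone. All of these lists stand against backgrounds of 22.5% lower and 23.4% higher in the prehypertrophic zone and 30.7% and 28.2% in the hypertrophic zone, each relative to the proliferative zone, and of 29.9% lower and 28% higher in the hypertrophic relative to the prehypertrophic zone.

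**Figure D5:**
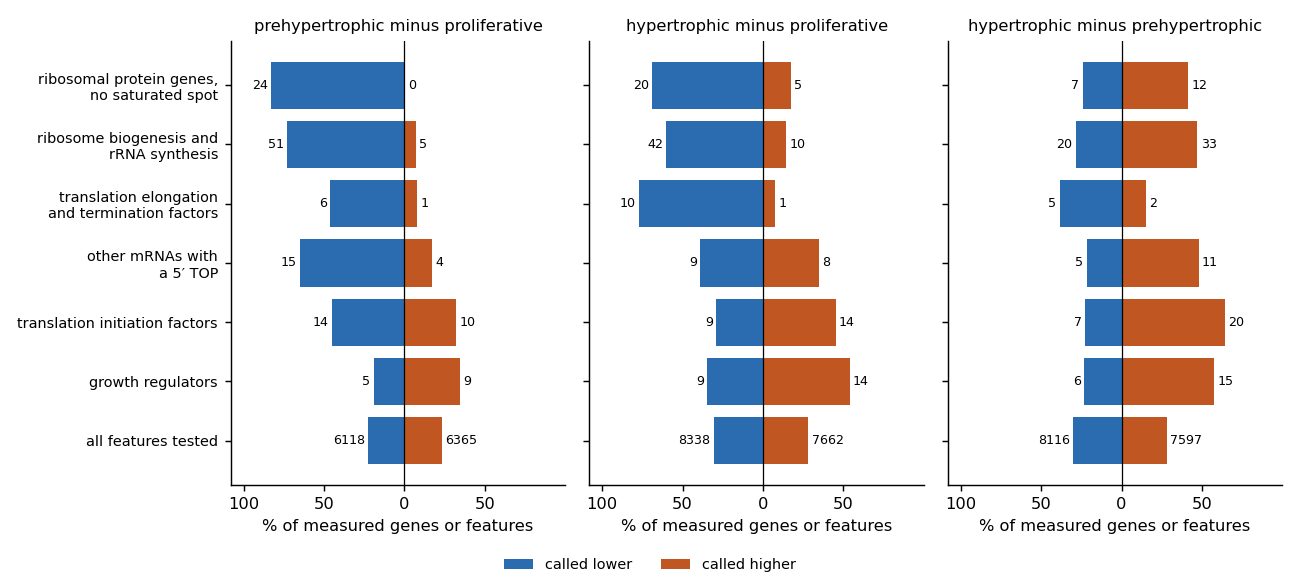
Percent of measured genes called lower (blue, left) and higher (orange, right) in each comparison, with the number of genes at the end of each bar, for the 29 unsaturated ribosomal protein genes, 5 lists of related genes and all features tested. In the prehypertrophic relative to the proliferative zone 24 ribosomal protein genes and 51 biogenesis genes were lower, against 0 and 5 higher. Unlike the 29, the lists keep genes with saturated spots, 1 of 70 for biogenesis, 2 of 13 for elongation and 6 of 23 for other TOP mRNAs.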

How the data were processed

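RNA of 12 samples was measured on 6 two-colour Agilent arrays. Each deposited scanner file gives, for 1 channel, an intensity per spot (background-subtracted and dye-normalized by Agilent Feature Extraction 8.1.1.1, per the file headers). Other values in the deposited files, coded 0 or 1, mark saturated, outlying and well-above-background spots. A deposited table of log2 values was compared with the files (41174 probes). Just 1 of its 12 columns was nearest to the file of the sample it names, and 6 to one of that zone, so it was not used.

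The channels were paired by spot within arrays. Log2 ratios of the processed signals were normalized by loess within arrays (limma 3.58.1, R 4.3.3), control spots and outlier-flagged spots having no weight, and flagged ratios were left out (7249, of which 4479 on array 2; Rps12 and Rps7 lack the ratio of array 5). Probes well above background in at least 4 samples were kept, and each gene was read by its brightest probe. The ratios were fitted with lmFit and eBayes, with terms for zone and dye (3 residual degrees of freedom), and p-values adjusted by Benjamini-Hochberg over 27173 features at 0.05. Between 92.6% and 96.2% of spots were well above background. Saturated spots numbered 7 to 35 in Cy3 and 112 to 294 in Cy5 samples. The number of arrays limits the precision.

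Per comparison the 10 largest falls and rises among the calls and the 3 smallest changes without a call were named, and by a fixed list the stalk proteins, paralogs and some genes of known mutant phenotype. Members and lists were chosen with earlier results of these data known. Alternatives changed normalization, dye term, probe choice, filters, moderation and arrays. The fitting steps were tested on simulated data. Deviations of same-numbered samples from their zone means correlated at 0.26 to 0.61 in the 4 pairs of prehypertrophic and proliferative samples, of which 2 pairs shared an array, but among the 8 other pairs above 0.1 only in the 2 that shared an array.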

Additional observations from a re-analysis of the deposited data

Results flagged for a closer look

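Among the levels of 40 genes in 3 zones, 4 groups of 4 samples held a sample far from the other 3, with a gap to the nearest above 0.829 of the range. Chance alone flags about 1 in 20 such groups. Rpl27 was 5.25 in prehypertrophic replicate 4, against 5.94 to 6.07 in the other prehypertrophic samples, and Rpl39 was 5.25 in the same sample, against 6.07 to 6.19. Both spots were saturated in that Cy5 sample, and each gene had 2 saturated prehypertrophic spots. Rpl7a was 5.65 in proliferative replicate 1, also a saturated Cy5 spot, against 5.34 to 5.38. The 5.34 came from a saturated Cy5 spot as well. Rpl27a was 1.52 in proliferative replicate 1, against 1.33 to 1.34, without saturation.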

How the results depend on the processing

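Counts of all called features stayed within 1.5 times their value in every alternative run. Of the values for named genes, 1614 kept direction and side of the threshold, 67 lost and 59 gained a call, and 7 changed sign. Genes higher in the hypertrophic than in the proliferative zone numbered 15 with quantile normalization, 2 without a dye term and 2 to 7 when an array was left out. Genes higher in the prehypertrophic than in the proliferative zone numbered 4 with quantile normalization, 1 in the separate-channel fit and 0 to 5 when an array was left out. Genes lower in the hypertrophic than in the prehypertrophic zone numbered 5 to 15 when an array was left out. The median log2 change, prehypertrophic minus proliferative, was -0.29 with the mean of a gene's probes and -0.50 without features that saturated, where hypertrophic minus proliferative was -0.26.

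Under quantile normalization Rpl24 was -0.045 and Rplp1 0.31 in the hypertrophic, and Rplp1 0.17 in the prehypertrophic, each minus proliferative. With the mean of probes Rps6 was 0.14, prehypertrophic minus proliferative, and -0.47, hypertrophic minus prehypertrophic. The cause was not tested, apart from the dimmer probe of Rps6, which gave 0.88 and -0.99.

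With the brightest unsaturated probe, chosen after seeing the data, the medians relative to the proliferative zone were -0.31 (hypertrophic) and -0.51 (prehypertrophic), 1 gene was higher in the prehypertrophic zone, 15 were lower in the hypertrophic than in the prehypertrophic zone, and Rpl11 was 0.21 in that comparison. Leaving out saturated features without loess, also chosen then, gave 19 of 29 genes lower in the hypertrophic than in the proliferative zone, against 32.4% of all features. The medians were -0.52 (prehypertrophic minus proliferative) and 0.12 (hypertrophic minus prehypertrophic). Fewer genes enter both.

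Only between the prehypertrophic and proliferative zones did same-numbered samples correlate above 0.1 without sharing an array. Those that shared no array carried the same dye, and differently numbered samples were not compared. A pairing of samples therefore cannot be told apart from the layout of arrays and dyes. With the replicate block, 50 of 70 genes were lower and 1 higher in the prehypertrophic than in the proliferative zone. Of all features in that fit 27.1% were lower and 28.6% higher. In the hypertrophic zone 33 of the 70 were lower and 9 higher, against 37.7% and 31.9%. Without the block the separate-channel fit gave 42 and 1 (28.4% and 29.7% of all features), and 38 and 6 (37.8% and 33.2%). With the block Rplp1 was 0.20, hypertrophic minus prehypertrophic.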

Other observations

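Of 9 chondrocyte markers, 5 were lower and 1 higher in the hypertrophic than in the proliferative zone, led by Cnmd (chondromodulin, an inhibitor of vessel growth) at a log2 change of -3.76 and Sox9 at -2.71. In the prehypertrophic zone 3 were lower and 1 higher. Saturated spots were present in 5 of the 9. Of 6 erythroid genes 6 were higher in the hypertrophic than in the proliferative zone, led by Hemgn at 4.59, and of 8 osteoclast genes 6 were higher and 1 lower, led by Mmp9 at 4.48. Of 6 osteoblast genes 5 were higher and 1 lower, with Col1a1 at 1.26. Of 6 muscle and tendon genes 2 were higher and 1 lower, with Tnnt3 at -2.92.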
